A study of Mus musculus with 32 samples.

Results

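The genes described here encode collagens, laminin chains, matrix metalloproteinases (MMPs), their tissue inhibitors (TIMPs) and ADAMTS proteases of interscapular brown adipose tissue. Membership was set by name, as every gene whose name on the array was Col with a chain number, Lama, Lamb or Lamc with a digit, or Mmp, Timp or Adamts with a digit. The members were chosen with earlier results of these data known. The array carried 101 such genes. Of these, 80 had a probe in the filtered table and are described, out of 24523 gene names in that table, namely 38 collagen genes, 10 laminin chains, 14 MMPs, 4 TIMPs and 14 ADAMTS proteases. The other 21, among them Lama1, Col6a4, Col6a5, Col6a6, Col25a1, Mmp7, Mmp10 and Adamts13, had no probe that passed the filter on dim spots and have no value.

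RNA was hybridised to 32 Agilent 1-colour arrays in 4 groups of 8. Total ChREBP KO mice carry an Mlxipl null allele and lack both ChREBP isoforms, and ChREBPβ KO mice carry a CRISPR/Cas9 deletion of the exon from which the β isoform starts. Each KO group was set against WT littermates of its own line. All mice were C57BL6/J males per the study's methods, were fed a regular diet, were fasted for 24 h and then refed for 18 h with 20% glucose in the drinking water, and their age is not given in the sources used here. Both deletions were germline and so were present in every cell of the tissue, mice of several litters were used, and no source says which arrays came from 1 litter, so the p values measure the spread between these samples. Levels are log2 intensities after quantile normalization. For each gene the brightest of its probes was used, levels of different genes cannot be set against each other, and a difference is a log2 difference between group means with its standard error (SE).

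Collagens and laminins form the scaffold around brown adipocytes and their vessels. Fibrillar collagens, made mainly by fibroblasts, form the interstitial fibres, whereas type IV collagen and laminins build the basement membrane that wraps each adipocyte and capillary. MMPs and ADAMTS proteases cleave or mature these proteins, and TIMPs block the proteases. The comparisons ask how far expression of these genes depends on ChREBP, the glucose-responsive transcription factor encoded by Mlxipl, and how far on its β isoform.

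The tissue label was checked first. The brown adipocyte list (10 genes, among them Ucp1) had a mean level between 14.17 and 14.99 on every array. The skeletal muscle list (12 genes) had a mean of 12.80 to 16.15 on the arrays of the total line, WT and KO alike, and of 5.66 to 11.95 on those of the ChREBPβ line, so the ranges of the lines did not overlap. The liver list (8 genes) spread from 6.22 to 12.39 over the arrays, and from 6.80 to 9.25 within total ChREBP KO. Mlxipl had a mean log2 intensity of 16.15 in total-line WT, 13.67 in total ChREBP KO, 16.34 in ChREBPβ-line WT and 14.84 in ChREBPβ KO, lower in 8 of 8 KO arrays of both lines. Each array had 64.4% to 71.1% of its spots clearly above background.

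In total ChREBP KO, 6 of 11 fibrillar collagens, 7 of 14 MMPs and Timp1 and Timp2 were lower than in WT. The basement membrane chains Lamb3, Col4a5 and Lamb1 were higher, while Lama4 was lower. Of the 80 genes, 18 were higher and 27 lower at a limma adjusted p under 0.05, and 35 were not called. The total ChREBP KO comparison called 44.1% of all 24523 genes, 22.9% higher and 21.1% lower, so the share of the 80 genes called higher (22.5%) was near that of all genes and the share called lower (33.8%) was above it. With slide as a fixed block the split of 18 higher and 27 lower became 17 and 17. The median log2 difference was -0.09 over the 80 genes and 0.01 over all genes. The ranges of the 8 KO and 8 WT arrays did not overlap for 14 of the 80 genes (17.5%), against 16.6% of all genes. Of the 45 genes called, 37 had all 8 KO arrays on their side of the mean of WT, and 39 changed in the same direction in all 4 wash batches, the other 6 in 3 of them. A wash batch held 1 to 3 arrays of a group. The genes had been called on these same arrays, so this agreement is partly built in.

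**Figure D1:**
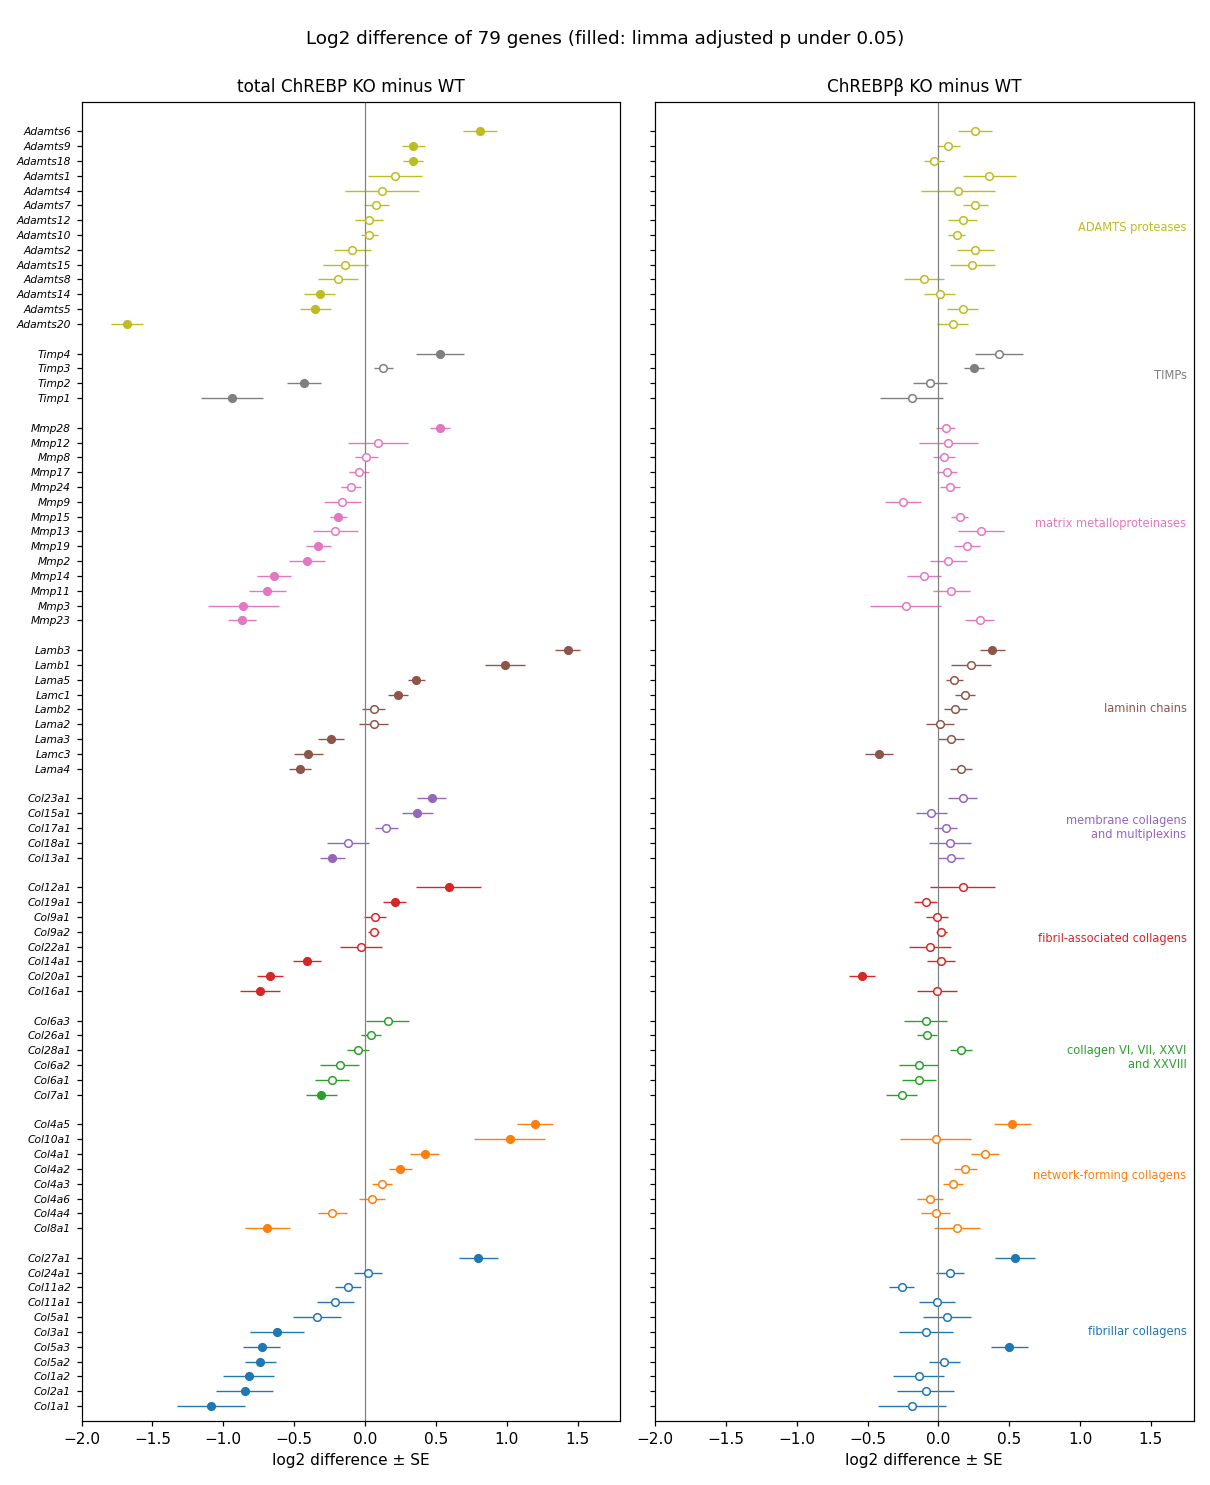
Log2 difference between KO and WT arrays (horizontal axis) with its SE for 79 of the 80 genes, in total ChREBP KO (left) and ChREBPβ KO (right), grouped and coloured by family; filled points had a limma adjusted p under 0.05. In total ChREBP KO 18 points are filled to the right and 27 to the left, and in ChREBPβ KO 5 and 2.

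Of 11 fibrillar collagens measured, 6 were lower in total ChREBP KO, 1 was higher and 4 were not called, with a median log2 difference of -0.62. Col1a1, a chain of type I collagen, was measured at chr11:94813075-94813134 (mm9). Its log2 intensity ran from 11.11 to 13.74 (median 12.50) in the 8 total-line WT arrays and from 11.08 to 11.44 (median 11.32) in the 8 KO arrays. The KO arrays thus lay together at the low end of a broad WT range, and the groups overlapped. The log2 difference was -1.09 ± 0.24 (SE; limma adjusted p 0.000364). Col1a2, the other chain of that collagen, ran from 12.95 to 14.85 (median 13.87) in WT and from 12.74 to 13.09 (median 12.97) in KO, a log2 difference of -0.82 ± 0.18 (limma adjusted p 0.000429). Col3a1, the chain of type III collagen that is laid down with type I, ran from 12.82 to 14.73 (median 13.76) in WT and from 12.95 to 13.27 (median 13.14) in KO. All of its KO values lay inside the WT range, with a log2 difference of -0.62 ± 0.19 (limma adjusted p 0.0101). With slide as a fixed block, Col1a2 and Col3a1 were no longer called (limma adjusted p 0.0507 and 0.133).

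The other fibrillar genes differed in how cleanly the groups separated. Col5a2, a chain of type V collagen, which sets the diameter of type I fibrils, had no overlap, with 6.28 to 7.27 (median 6.56) in WT and 5.78 to 6.05 (median 5.94) in KO, and a log2 difference of -0.74 ± 0.11 (limma adjusted p 1.29e-06). Col5a1, its usual partner chain, ran from 9.74 to 11.60 in WT and from 10.18 to 10.47 in KO and was not called (log2 difference -0.34, limma adjusted p 0.124). Col2a1, the cartilage fibril collagen, had a log2 difference of -0.85 ± 0.20 (limma adjusted p 0.000768) with 4 of 8 KO arrays below every WT array. Against the rest of the family, Col27a1 was higher in total ChREBP KO, with 9.30 to 9.98 (median 9.75) in WT, 10.05 to 11.04 (median 10.54) in KO, no overlap and a log2 difference of 0.80 ± 0.14 (limma adjusted p 3.42e-05). Col11a1, Col11a2 and Col24a1 were not called, with log2 differences between -0.21 and 0.02.

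The spread behind these differences lay mostly in the WT arrays. In the total line the SD was larger in WT than in KO for 56 of the 80 genes and for 9 of the 11 fibrillar collagens. The ChREBPβ line was much the same, with a larger SD in WT for 54 of the 80 genes and 7 of the 11 fibrillar collagens. The share over all genes was not counted. The mean level of the 11 fibrillar collagens ran from 9.04 to 10.19 (median 9.52) over the WT arrays and from 8.99 to 9.23 (median 9.11) over the KO arrays, and 6 of 8 WT arrays lay above every KO array while replicates 1 and 3 did not. Of the marker lists of other cells, some went the same way and others did not. In total ChREBP KO the endothelial list had 3 genes higher and 3 lower, and the mural list 2 and 1. The neutrophil list had 1 and 1, the lymphocyte list 1 and 0, the Schwann list 0 and 1, and the brown adipocyte list 5 and 2. Lower were genes of the fibroblast and macrophage lists. The fibroblast and adipose stroma list (12 genes, led by Pdgfra) had 6 genes lower and 0 higher in total ChREBP KO and a mean of 10.76 to 11.45 in WT against 10.65 to 10.94 in KO. The macrophage list (9 genes) had 8 lower and 0 higher, and its mean of 9.62 to 10.41 in WT did not overlap that of 9.11 to 9.53 in KO. WT replicates 1 and 3 were thus above every KO array for the macrophage list but not for the fibrillar collagens. The part of these cells in the collagen values was not tested, and in RNA of whole tissue fewer cells of a type and less RNA per cell cannot be told apart.

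**Figure D2:**
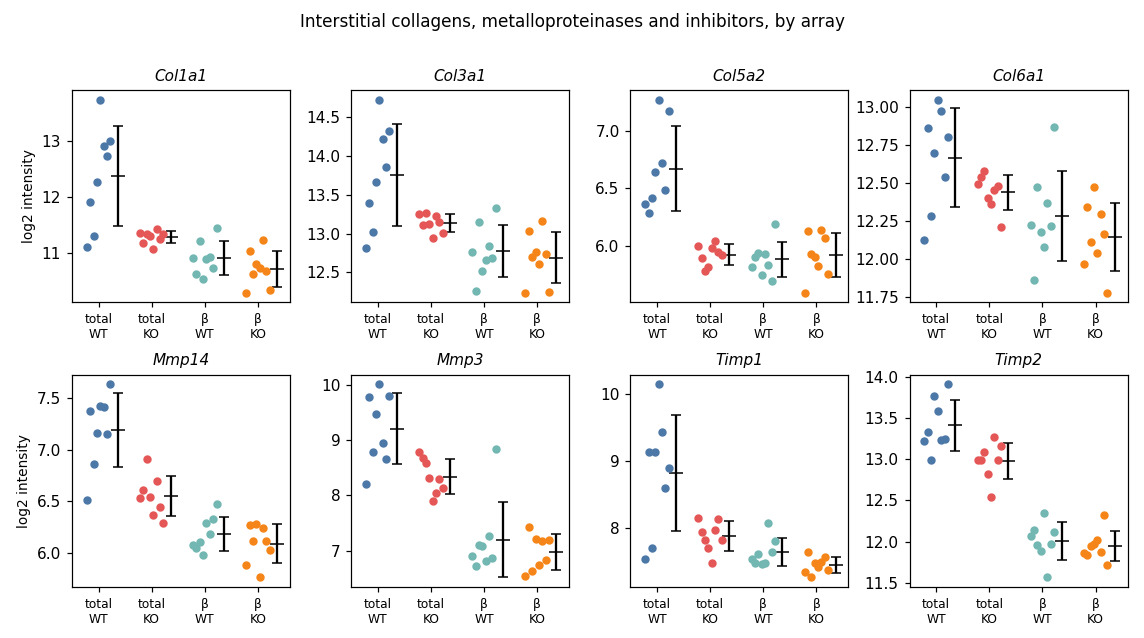
Log2 intensity (vertical axis) of 8 interstitial genes in each of the 32 arrays by group; each point is an array, and the bar beside them is the group mean with its SD. The 8 KO arrays of Col1a1 sit between 11.08 and 11.44, at the low end of the total-line WT arrays, which reach 13.74.

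Promoter windows are shown for the pair of fibrillar genes Col1a2 and Col3a1, which were lower together, to let their starts be compared. They are RefSeq windows from 250 bases before to 50 after the gene start on GRCm38.p6, 5′ to 3′ on the strand of the gene. Capitals mark CCAAT or its complement ATTGG, and TATAAA or its complement TTTATA, on either strand.
Col1a2, chr6:4505368-4505667, plus strand: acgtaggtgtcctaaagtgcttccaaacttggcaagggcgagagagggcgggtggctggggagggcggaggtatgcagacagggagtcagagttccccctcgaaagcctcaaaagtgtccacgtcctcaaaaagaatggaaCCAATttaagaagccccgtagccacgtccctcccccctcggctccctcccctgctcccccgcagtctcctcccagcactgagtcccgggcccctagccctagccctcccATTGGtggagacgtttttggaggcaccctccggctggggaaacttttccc
Col3a1, chr1:45311288-45311587, plus strand: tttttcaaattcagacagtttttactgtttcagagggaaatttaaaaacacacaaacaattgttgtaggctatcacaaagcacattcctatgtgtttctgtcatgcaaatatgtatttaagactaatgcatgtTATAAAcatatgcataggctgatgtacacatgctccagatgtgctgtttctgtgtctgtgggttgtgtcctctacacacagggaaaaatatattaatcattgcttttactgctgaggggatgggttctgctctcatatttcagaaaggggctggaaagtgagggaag
The Col1a2 window was rich in G and C (61.0%) and held 2 CCAAT motifs and no TATAAA, whereas the Col3a1 window held 37.7% G and C, 1 TATAAA and no CCAAT.

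Of 8 network-forming collagens measured, 4 were higher in total ChREBP KO, 1 was lower and 3 were not called, with a median log2 difference of 0.18. Col4a1, a main chain of the type IV network under endothelium and around adipocytes, ran from 12.71 to 13.29 (median 12.91) in WT and from 13.08 to 13.54 (median 13.42) in KO. All 8 KO arrays were above the WT mean and 5 were above every WT array, with a log2 difference of 0.42 ± 0.10 (limma adjusted p 0.000543). Col4a2, which is assembled with it, changed by 0.25 ± 0.08 on the log2 scale (limma adjusted p 0.00831) and lost the call when arrays were scaled to the 75th percentile of either signal (limma adjusted p up to 0.0873). Col4a5, a chain of the type IV network of kidney and other specialised basement membranes, was measured at chrX:138123547-138123606 (mm9). It ran from 5.94 to 6.95 (median 6.82) in WT and from 7.65 to 8.14 (median 7.86) in KO, so that no KO array came near a WT array, with a log2 difference of 1.20 ± 0.13 (limma adjusted p 8.51e-09). Col10a1, a collagen of hypertrophic cartilage, was dim and variable in KO (4.95 to 7.22) and higher by 1.02 ± 0.25 on the log2 scale (limma adjusted p 0.0014), and 6 of 8 WT arrays were above background for its probe. Col8a1, a short-chain collagen of vessel walls, was the member that fell, with 9.22 to 10.90 (median 9.85) in WT, 9.03 to 9.62 (median 9.26) in KO and a log2 difference of -0.69 ± 0.16 (limma adjusted p 0.000624). Col4a3, Col4a4 and Col4a6 were not called.

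Col4a1 and Col4a2 lie head to head, and their start windows are shown because the genes rose together and share sequence.
Col4a1, chr8:11312777-11313076, minus strand: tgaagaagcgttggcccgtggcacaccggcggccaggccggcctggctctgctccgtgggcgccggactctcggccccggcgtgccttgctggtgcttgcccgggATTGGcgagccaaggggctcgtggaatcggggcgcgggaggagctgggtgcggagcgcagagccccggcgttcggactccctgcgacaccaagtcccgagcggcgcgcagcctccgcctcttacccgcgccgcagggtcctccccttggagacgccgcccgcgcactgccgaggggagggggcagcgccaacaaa
Col4a2, chr8:11312555-11312854, plus strand: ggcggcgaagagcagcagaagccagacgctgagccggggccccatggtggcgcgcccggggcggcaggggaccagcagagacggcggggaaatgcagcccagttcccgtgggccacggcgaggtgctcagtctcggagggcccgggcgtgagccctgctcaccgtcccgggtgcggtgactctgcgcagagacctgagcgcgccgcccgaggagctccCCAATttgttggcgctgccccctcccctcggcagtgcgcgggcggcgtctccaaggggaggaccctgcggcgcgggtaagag
The windows overlap by 78 bases, chr8:11312777-11312854, on opposite strands. Each held 1 CCAAT motif, none held TATAAA, and G and C made up 74.0% and 73.7% of them.

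Laminin chains split by chain. Of 10 measured, 4 were higher and 3 lower in total ChREBP KO, with a median log2 difference of 0.06. Lamb3, the β chain of the laminin of epithelial anchoring structures, had the largest rise of the 80 genes and was measured at chr1:195170009-195170068 (mm9). Its level ran from 7.13 to 7.53 (median 7.35) in WT and from 8.54 to 9.10 (median 8.73) in KO, wholly apart, with a log2 difference of 1.43 ± 0.09 (limma adjusted p 8.96e-15). A second Lamb3 probe rose by 1.27 on the log2 scale, and the third and dimmest did not change with genotype beyond the test (0.06, limma adjusted p 0.517). Lamb1, the β chain of the common laminins of adipocyte and vessel basement membranes, ran from 12.36 to 13.40 (median 12.68) in WT and from 13.48 to 13.93 (median 13.69) in KO. Its groups did not overlap either, the log2 difference was 0.99 ± 0.14 (limma adjusted p 5.81e-07), and all 5 of its probes were called higher. Lamc1, the γ chain paired with it, rose by 0.23 ± 0.07 (limma adjusted p 0.00717; 0.051 with the slide block) and Lama5, an α chain of mature basement membranes, by 0.36 ± 0.06 (limma adjusted p 6.88e-06). Dimmer Lamc1 probes were called higher (0.28, limma adjusted p 0.00103) or not called (0.19 and 0.02, limma adjusted p 0.317 and 0.842).

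Lama4, the α chain typical of endothelium and adipocytes, moved against its β and γ partners. It ran from 11.81 to 12.17 (median 11.98) in WT and from 11.22 to 11.78 (median 11.54) in KO without overlap, a log2 difference of -0.46 ± 0.08 (limma adjusted p 9.81e-06), and all 4 of its probes were called lower. Lamc3 fell by 0.40 on the log2 scale (limma adjusted p 0.00202) and Lama3 by 0.24 (limma adjusted p 0.032). Lama2, the α chain of muscle and nerve, was not called by its brightest probe (0.06, limma adjusted p 0.647), but a dimmer probe was lower by 0.94 (limma adjusted p 4.18e-06) and another by 0.24, so its probes disagreed and their mean was called lower (-0.31, limma adjusted p 0.00228), whereas the brightest probe was called higher with the slide block (0.24, limma adjusted p 0.034). Lamb2 was not called.

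**Figure D3:**
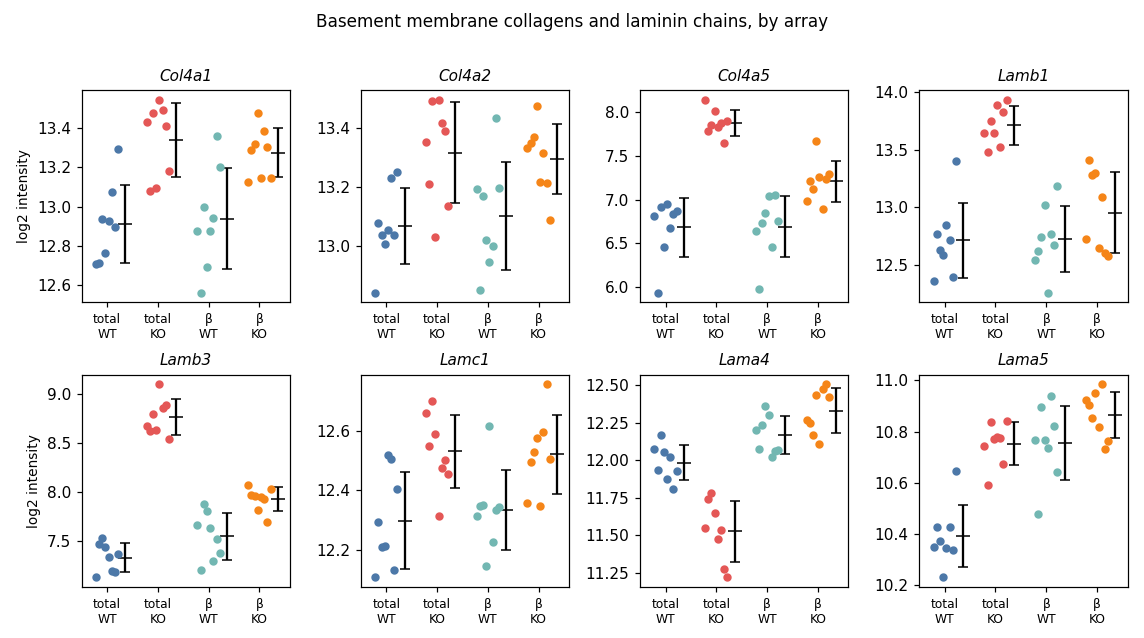
Log2 intensity (vertical axis) of 8 basement membrane genes in each of the 32 arrays by group; each point is an array, and the bar beside them is the group mean with its SD. The total ChREBP KO arrays of Lamb3 (8.54 to 9.10), Lamb1 and Col4a5 lie above all their WT arrays, and those of Lama4 (11.22 to 11.78) below.

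For Lamb1, whose probes agreed most broadly in total ChREBP KO, the start window on GRCm38.p6 is shown with the same capitals.
Lamb1, chr12:31265043-31265342, plus strand: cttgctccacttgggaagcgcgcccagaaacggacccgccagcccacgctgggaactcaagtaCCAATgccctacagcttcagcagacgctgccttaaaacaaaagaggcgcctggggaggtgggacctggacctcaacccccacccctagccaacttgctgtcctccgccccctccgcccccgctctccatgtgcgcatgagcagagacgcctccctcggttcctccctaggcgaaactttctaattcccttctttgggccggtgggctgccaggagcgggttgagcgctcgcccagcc
It held 1 CCAAT, 2 GGGCGG (counted on both strands, as are all motifs here) and no TATAAA. Over the whole set, 56 of the 80 genes had at least 1 RefSeq window, 62 windows in all. CCAAT was found in 29.0% of these windows against 37.4% of all 32851 windows, TATAAA in 16.1% against 13.6% and GGGCGG in 58.1% against 35.7%. CACGTG, an E-box of the kind found in carbohydrate response elements, was in 0 of the 62 windows and in 7.15% of all windows, which says only that these letters are not in these windows. By direction in total ChREBP KO, CCAAT was present for 5 of 15 genes called higher and 8 of 17 called lower, and GGGCGG for 10 and 13 of them.

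Among the remaining collagens the changes were mixed. Collagen VI, which forms beaded filaments next to adipocytes, was not called in total ChREBP KO for any of its 3 measured chains. Col6a1 ran from 12.13 to 13.05 in WT and from 12.21 to 12.58 in KO (log2 difference -0.23, limma adjusted p 0.136), Col6a2 had a log2 difference of -0.18 and Col6a3 of 0.16. Col7a1, the anchoring fibril collagen, was lower by 0.31 (limma adjusted p 0.0258). Of 8 fibril-associated collagens, which coat or link fibrils, 3 were lower and 2 higher. Col16a1 ran from 8.68 to 10.23 (median 9.33) in WT and from 8.32 to 8.67 (median 8.52) in KO, with a log2 difference of -0.74 ± 0.14 (limma adjusted p 7.39e-05) and no overlap. Col20a1 was lower by 0.67 without overlap (6.89 to 7.41 in WT, 6.11 to 6.52 in KO, limma adjusted p 2.02e-07) and Col14a1 by 0.41 (limma adjusted p 0.00189), while Col12a1 was higher by 0.59 (limma adjusted p 0.035) and the dim Col19a1 by 0.21 (limma adjusted p 0.0391). Of 5 membrane collagens and multiplexins, the basement membrane collagen Col15a1 (0.37, limma adjusted p 0.00904) and Col23a1 (0.47, limma adjusted p 0.000268) were higher and Col13a1 lower, and Col18a1, the precursor of endostatin, was not called (-0.12, limma adjusted p 0.56). The dimmer probes of Col12a1 (0.22, limma adjusted p 0.0622), Col13a1 (-0.03, limma adjusted p 0.797) and Col15a1 (0.20, limma adjusted p 0.144) were not called.

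Of 14 MMPs measured, 7 were lower, 1 was higher and 6 were not called in total ChREBP KO, with a median log2 difference of -0.20. Mmp14, the membrane-anchored collagenase that activates pro-MMP2, ran from 6.52 to 7.64 (median 7.27) in WT and from 6.28 to 6.91 (median 6.54) in KO. The groups overlapped at the edge, and the log2 difference was -0.64 ± 0.12 (limma adjusted p 3.17e-05). Mmp2, its gelatinase substrate, was lower by 0.41 ± 0.13 (limma adjusted p 0.0135), and the call was lost with the slide block (limma adjusted p 0.287). Mmp3, the stromelysin that opens other pro-MMPs, ran from 8.21 to 10.01 (median 9.20) in WT and from 7.90 to 8.79 (median 8.31) in KO, with a log2 difference of -0.86 ± 0.25 (limma adjusted p 0.00477), likewise lost with the slide block (limma adjusted p 0.0888). Mmp23 separated fully, with 7.52 to 8.15 in WT, 6.73 to 7.29 in KO and a log2 difference of -0.87 ± 0.10 (limma adjusted p 1.47e-08), as did Mmp11 (7.70 to 8.31 against 7.07 to 7.37, log2 difference -0.69, limma adjusted p 4.75e-05). Mmp28, the epithelial MMP also called epilysin, was the single member that rose, from 8.08 to 8.31 in WT to 8.57 to 8.95 in KO (log2 difference 0.53 ± 0.07, limma adjusted p 4.57e-07). Mmp19 and Mmp15 fell by 0.33 and 0.19 on the log2 scale (limma adjusted p 0.00398 and 0.0102), with no KO array of Mmp15 below every WT array. The dimmer probes of Mmp19 (-0.02, limma adjusted p 0.897) and Mmp28 (0.09, limma adjusted p 0.427) were not called. Mmp17 was not called by its brightest probe (-0.04), but its dimmer probe was lower (-0.30, limma adjusted p 0.000217). Mmp9, a gelatinase of leukocytes, was not called (-0.16, limma adjusted p 0.34). Mmp13, an interstitial collagenase, was well above background on 5 WT arrays and 0 KO arrays of the total line and was not called.

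The inhibitors did not move as 1 group. Timp1, the inducible TIMP, ran from 7.54 to 10.14 (median 9.01) in WT and from 7.48 to 8.15 (median 7.88) in KO, with the same broad WT range as type I collagen and a log2 difference of -0.94 ± 0.22 (limma adjusted p 0.000734). Timp2, which also takes part in MMP2 activation at the cell surface, was lower by 0.43 ± 0.12 (limma adjusted p 0.00278; 0.136 with slide as a fixed block). Timp4, a TIMP known from heart and adipose tissue, was higher by 0.53 ± 0.17 (10.78 to 11.84 in WT, 11.36 to 12.01 in KO, limma adjusted p 0.0102), but its dimmest probe had a difference of -0.54 and the mean of its probes was not called. Timp3, the TIMP that binds to the matrix, was not called by its brightest probe (0.13, limma adjusted p 0.115), whereas its dimmest probe was lower by 1.05 (limma adjusted p 0.000836), which brought the mean of its probes to -0.27.

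Of 14 ADAMTS proteases, 3 were higher and 3 lower. Each share was 21.4%, near the 22.9% higher and 21.1% lower of all genes. Adamts20, a versican-cleaving protease, had the most negative difference of the 80 genes and was measured at chr15:94181910-94181969 (mm9). It ran from 6.08 to 6.87 (median 6.45) in WT and from 4.60 to 4.98 (median 4.80) in KO, where 3 of 8 arrays were above background, with a log2 difference of -1.68 ± 0.11 (limma adjusted p 4.94e-14). The value was -2.98 with Agilent's processed signal and -0.96 with normexp background correction. Adamts6, which acts on fibrillin microfibrils, rose from 4.30 to 4.96 in WT to 5.07 to 5.83 in KO without overlap (log2 difference 0.81 ± 0.12, limma adjusted p 1.07e-06), and 4 of 8 WT arrays were above background. The proteoglycan-cleaving enzymes Adamts5 and Adamts9 went opposite ways (-0.35 and 0.34, limma adjusted p 0.0133 and 0.000799). The Adamts5 call was lost with the slide block (0.101) and with median intensity scaled to the 75th percentile. Of the dimmer Adamts9 probes, 1 was called higher (0.19, limma adjusted p 0.0372) and the others were not called (-0.00 and 0.08). The related Adamts1 and Adamts4 were not called (0.21 and 0.12). Adamts18 was higher by 0.34 and Adamts14, which removes the amino-terminal propeptide of fibrillar procollagens, lower by 0.32 (limma adjusted p 0.0216), whereas Adamts2, the main enzyme of that step, was not called (-0.09). The dimmer Adamts18 probe was not called (-0.00, limma adjusted p 0.999). Adamts7, Adamts8, Adamts10, Adamts12 and Adamts15 were not called either by their brightest probes, with log2 differences between -0.19 and 0.08, but 3 of the 5 Adamts10 probes were called higher (0.30, 0.47 and 0.28).

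Other matrix genes were counted from further lists. The interstitial matrix list shares Dcn, Lum, Mfap5 and Fbln1 with the fibroblast list. Mfap5 (-0.55) and Fbln1 (-0.40) count as lower in both, so the counts of these lists are not separate observations. Of 22 other interstitial matrix genes, 13 were lower and 1 higher in total ChREBP KO, led by Tnc (-1.07) and Thbs2 (-1.01), with a list median of -0.35 against 0.01 over all genes. Of 22 genes for modifying, folding and crosslinking collagen, 6 were lower and 4 higher, with the crosslinking enzyme Lox lower by 0.68 and the lysyl hydroxylase Plod2 higher by 0.64. Of 16 basement membrane partners and matrix receptors, 7 were higher and 4 lower, with Agrn at 0.78 and Npnt at -0.82. Of 14 other extracellular proteases and inhibitors 8 were lower and 2 higher, and of 15 genes of TGF-β signalling, a pathway that induces collagen genes, 7 were lower and 3 higher, with the receptor Tgfbr2 at -1.64 (limma adjusted p 1.13e-20) and Smad3 at 1.28 (limma adjusted p 3.26e-14).

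**Figure D4:**
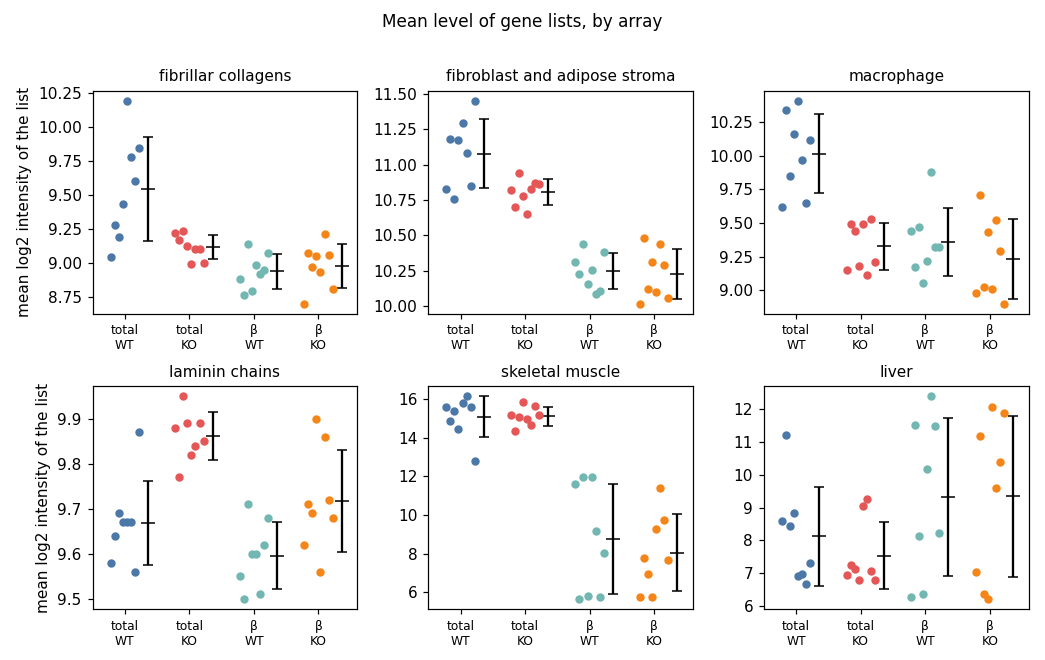
Mean log2 intensity (vertical axis) of 6 gene lists in each of the 32 arrays by group; each point is an array, and the bar beside them is the group mean with its SD. The median of the fibrillar collagens is 9.52 in total-line WT and 9.11 in total ChREBP KO, that of the macrophage list 10.04 and 9.32, and the muscle list lies between 12.80 and 16.15 in the total line and between 5.66 and 11.95 in the ChREBPβ line.

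In ChREBPβ KO few genes of the matrix changed. Higher were Col27a1, Col4a5, Col5a3, Lamb3 and Timp3, lower were Col20a1 and Lamc3, and the other 73 were not called, among them every collagen I, III and VI chain and, by the brightest probe, every MMP and ADAMTS protease. The comparison called 2.70% of all genes, 1.37% higher and 1.33% lower, and 8.75% of these 80. Their median log2 difference was 0.07 against -0.00 over all genes. The ranges of KO and WT arrays overlapped for all 80 genes, and were apart for 0.432% of all genes. Each of the 7 differences was below 1.5-fold, had 8 of 8 KO arrays on its side of the WT mean and kept its direction in all 4 wash batches. A wash batch held 1 to 3 arrays of a group. The genes had been called on these same arrays, so this agreement is partly built in and is no replication. The count was 3 to 9 when 1 array was left out, with 3 or 4 calls without WT replicate 1, 2, 6 or 8 or KO replicate 4, 5 or 6 of this line, and 1 call with slide as a fixed block.

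Col20a1, a fibril-associated collagen, gave the smallest adjusted p. It ran from 7.10 to 7.62 (median 7.37) in ChREBPβ-line WT and from 6.58 to 7.14 (median 6.84) in KO, with 7 of 8 KO arrays below every WT array and a log2 difference of -0.54 ± 0.09 (limma adjusted p 0.000419). It was called under all alternatives, those that left out 1 array included, except the requirement of a 1.5-fold change and the filter for probes found, positive and above background on every array, which its probe did not pass. Lamb3 ran from 7.21 to 7.87 (median 7.58) in WT and from 7.69 to 8.07 (median 7.96) in KO, a log2 difference of 0.38 ± 0.09 (limma adjusted p 0.0119), which also lost its call with the slide block (limma adjusted p 0.159). Its dimmer probes were not called (0.31 and 0.07, limma adjusted p 0.0709 and 0.748). Col4a5 ran from 5.98 to 7.05 (median 6.75) in WT and from 6.89 to 7.67 (median 7.22) in KO, with a log2 difference of 0.52 ± 0.13 (limma adjusted p 0.0285). Its dimmer probe was not called (0.35, limma adjusted p 0.157). For the brightest probes of Lamb3 and Col4a5, 6 of 8 KO arrays lay above every WT array. Lamc3, a laminin γ chain, ran from 8.86 to 9.54 (median 9.14) in WT and from 8.48 to 8.96 (median 8.71) in KO, a log2 difference of -0.42 ± 0.10 (limma adjusted p 0.0201) that lost its call with the slide block (limma adjusted p 0.287), with the replicate block (0.0519) or without WT replicate 8 (0.0551).

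Col27a1, a fibrillar collagen of cartilage and other tissues, ran from 9.76 to 10.86 (median 10.58) in WT and from 10.59 to 11.35 (median 11.05) in KO, with 7 of 8 KO arrays above every WT array. Its call (log2 difference 0.54 ± 0.14, limma adjusted p 0.0369) and those of Col4a5 and Timp3 (0.25, limma adjusted p 0.0357) were lost under 4 to 7 of the alternatives that kept all arrays and when any of 6 to 8 single arrays was left out. For Timp3 the groups ran from 13.05 to 13.44 in WT and from 13.36 to 13.86 in KO. Its dimmer probes were not called (0.27 and 0.18, limma adjusted p 0.118 and 0.848). Col4a1 was just short of the threshold, with 12.56 to 13.36 (median 12.91) in WT, 13.13 to 13.48 (median 13.29) in KO and a log2 difference of 0.33 ± 0.10 (limma adjusted p 0.0546; the alternatives gave 0.0263 to 0.158). Col1a1 ran from 10.54 to 11.44 in WT and from 10.29 to 11.24 in KO, so the groups lay over each other (-0.19, limma adjusted p 0.822). The fibroblast list mean ran from 10.09 to 10.44 in WT and from 10.02 to 10.48 in KO of this line, and the macrophage list mean from 9.05 to 9.88 and from 8.90 to 9.71. Of the 14 MMPs and the 14 ADAMTS proteases, none of which limma called by its brightest probe, 3 each had an unadjusted p under 0.05. A dimmer probe was called higher for Adamts2 (0.37, limma adjusted p 0.0482) and lower for Mmp17 (-0.23, limma adjusted p 0.0387), and counting any probe gave 9 of the 80 genes, 6 higher and 3 lower. Of the lists of other matrix genes, the basement membrane partners held 1 call (Itga7, higher by 0.33, limma adjusted p 0.0273) and TGF-β signalling 2 (Smad3 at 0.37 and Tgfbr2 at -0.31).

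In both KO models 6 genes were called, 5 in the same direction and 1 in opposite ones. How many of all genes were called in both models was not counted, so these counts have no background beside them. Col27a1, Col4a5 and Lamb3 were higher and Col20a1 and Lamc3 lower in each. The exception was Col5a3, the type V chain found in adipose tissue, measured at chr9:20574592-20574651 (mm9). It ran from 12.39 to 13.14 (median 12.78) in total-line WT and from 11.79 to 12.29 (median 12.01) in total ChREBP KO, but from 12.43 to 13.20 (median 12.61) in ChREBPβ-line WT and from 12.84 to 13.67 (median 13.36) in ChREBPβ KO. Total ChREBP KO was below all its WT arrays (log2 difference -0.73 ± 0.13, limma adjusted p 1.55e-05), and 6 of 8 ChREBPβ KO arrays were above all of theirs (0.50 ± 0.13, limma adjusted p 0.0238). The difference between the effects was 1.22 ± 0.18 (limma adjusted p 3.26e-06), and the dimmer probe of the gene gave 0.54 (limma adjusted p 0.0181). That dimmer probe was called neither in total ChREBP KO (-0.27, limma adjusted p 0.0722) nor in ChREBPβ KO (0.28, limma adjusted p 0.274). The opposite calls thus rest on the brightest probe. Its ChREBPβ KO call was lost with slide as a fixed block (limma adjusted p 0.393), with a fit to that line alone, and when any of 6 single arrays of that line was left out (limma adjusted p up to 0.0633).

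The start window of Col5a3 on GRCm38.p6 is printed for this opposite behaviour, with the same capitals.
Col5a3, chr9:20815018-20815317, minus strand: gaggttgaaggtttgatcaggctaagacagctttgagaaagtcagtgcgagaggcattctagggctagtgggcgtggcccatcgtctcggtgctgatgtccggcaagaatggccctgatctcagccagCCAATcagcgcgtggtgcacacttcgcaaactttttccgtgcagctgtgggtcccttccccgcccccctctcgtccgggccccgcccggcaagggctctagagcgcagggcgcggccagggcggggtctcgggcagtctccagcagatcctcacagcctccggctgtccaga
It held 1 CCAAT motif, 3 GGGCGG and no TATAAA or CACGTG.

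**Figure D5:**
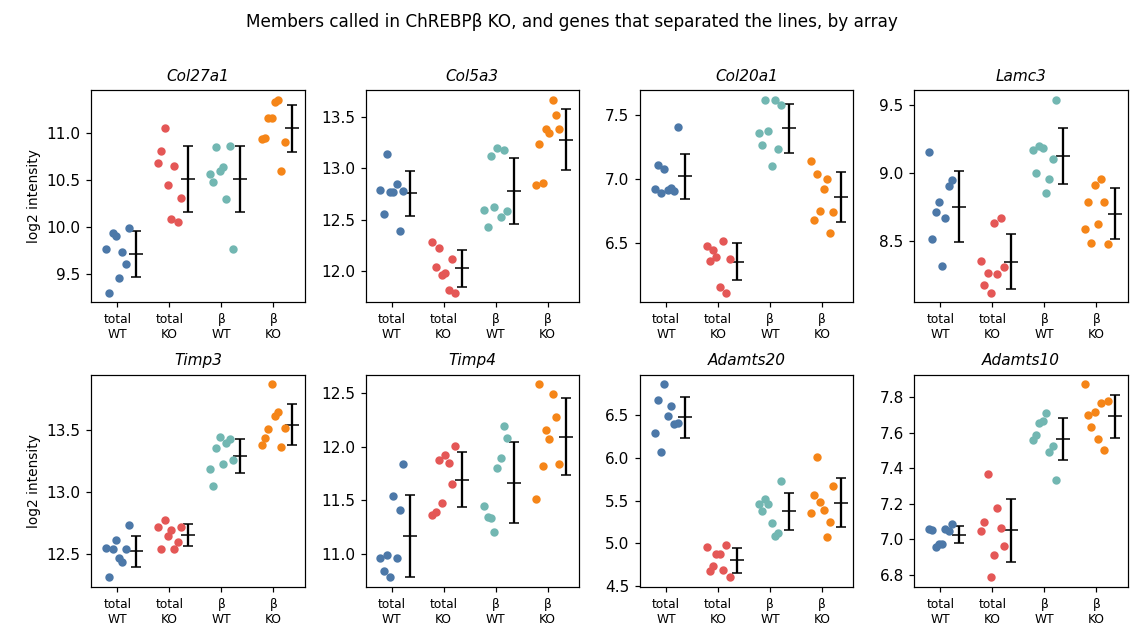
Log2 intensity (vertical axis) of 8 genes in each of the 32 arrays by group; each point is an array, and the bar beside them is the group mean with its SD. Col5a3 is lower in total ChREBP KO (11.79 to 12.29) and higher in ChREBPβ KO (12.84 to 13.67) than in the respective WT arrays, Adamts20 is low in total ChREBP KO, and Adamts10 is higher in ChREBPβ-line WT (7.33 to 7.71) than in total-line WT (6.96 to 7.09).

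The difference between the KO effects, ChREBPβ minus total, was tested for every gene. It was called for 22 of the 80 genes (27.5%), 14 with a higher and 8 with a lower effect in ChREBPβ KO. Over all genes it was called for 25.2%, 12.2% higher and 13.0% lower. Both effects rest on their own WT groups, so this is a difference of differences between lines that were not littermates. The effects differed most for Adamts20 (1.79 ± 0.16, limma adjusted p 1.81e-10), Col5a3, Mmp23 (1.16 ± 0.14, limma adjusted p 1.71e-07) and Lamb3 (-1.05 ± 0.12, limma adjusted p 8.25e-08). Lamb3 and Col4a5 rose in both models and less in ChREBPβ KO (difference -0.68, limma adjusted p 0.0082, for Col4a5), whereas for Col27a1, Col20a1 and Lamc3 no difference was called by the brightest probe (-0.26, 0.13 and -0.02). The other Col27a1 probe did have a called difference (-0.71, limma adjusted p 0.0248), and its change in ChREBPβ KO was not called (0.42, limma adjusted p 0.203). Col5a2 and Col16a1 differed (0.78 and 0.73, limma adjusted p 0.000295 and 0.00762), but Col1a1 and Col1a2 fell just short (0.89 and 0.68, limma adjusted p 0.0509 and 0.0508) and passed under 6 and 8 of the alternatives. The dimmer probes of Col1a2 gave 0.71 and 0.55 (limma adjusted p 0.00509 and 0.0256), and those of Col1a1 were not called. Mmp14 (0.54), Mmp11 (0.78) and Lama4 (0.62) had called differences, and Lamb1 (-0.77), Col10a1 (-1.04), Adamts6 (-0.55) and Mmp28 (-0.48) differed in the other direction. By family, the effect was higher in ChREBPβ KO for 5 MMPs, 3 fibrillar and 2 fibril-associated collagens, 2 ADAMTS proteases, 1 laminin chain and 1 network-forming collagen, and lower for 3 laminin chains, 2 network-forming collagens, 2 ADAMTS proteases and 1 MMP.

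The WT groups of the lines differed from each other in more of these genes than WT and KO did within either line. In ChREBPβ-line WT, 17 of the 80 genes were higher and 33 lower than in total-line WT, and this comparison called 38.9% of all genes, 24.8% higher and 14.1% lower. The share of the 80 called lower was thus 41.2%. Of the fibrillar collagens 8 of 11 were lower, with a family median of -0.78, and all 3 collagen VI chains were lower (-0.38 to -0.67). Col1a1, at 10.54 to 11.44 in ChREBPβ-line WT against 11.11 to 13.74, had a log2 difference of -1.46 ± 0.24 (limma adjusted p 1.15e-05). Mmp3 was lower by 2.00 ± 0.25, with 6.73 to 8.83 against 8.21 to 10.01 (limma adjusted p 1.25e-07), where 1 ChREBPβ-line array reached the range of the other line. Adamts4 was lower by 1.49 and Timp2 by 1.41 (limma adjusted p 3.79e-05 and 7.11e-11). Col24a1 was well above background on 6 total-line WT arrays and 0 ChREBPβ-line WT arrays, which puts it at least 1.21-fold lower there (mean of the total line against the higher, per array, of its own signal and the lowest signal well above background). Of 14 MMPs 6 were lower and 2 higher, and of 14 ADAMTS proteases 7 were lower and 5 higher.

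Higher in ChREBPβ-line WT were Col27a1 (0.79), Timp3 (0.76), Mmp11 (0.68), Adamts10, a fibrillin-binding ADAMTS protease (0.54), and Timp4 (0.50), all called by their brightest probe; the mean of the probes was not called for Timp3 and Timp4 (limma adjusted p 0.765 and 0.478). Of the laminin chains 5 were higher and 2 lower. Of the network-forming collagens 7 of 8 were not called, with a family median of 0.03 against 0.05 over all genes. Col4a1 ran from 12.71 to 13.29 in total-line WT and from 12.56 to 13.36 in ChREBPβ-line WT. By its brightest probe, Lamb1 ran from 12.36 to 13.40 and from 12.26 to 13.18. Its probes disagreed here, since dimmer ones were called lower (-1.27 and -0.89, limma adjusted p 0.000131 and 5.40e-05) or not called (0.03 and -0.28). For Timp3, Adamts5, Adamts9 and Adamts12, probes of the same gene were called in opposite directions in this comparison. Several marker lists of other cells also differed. In ChREBPβ-line WT, 12 of 12 muscle genes, 7 of 9 macrophage genes and 5 of 6 neutrophil genes were lower. Of 12 fibroblast genes 11 were lower and 1 higher. Higher were 9 of 10 endothelial genes and 7 of 8 mural genes, while the mural gene Des was lower (-2.89, limma adjusted p 1.27e-10). The lymphocyte and Schwann lists each had 3 higher and 0 lower. The brown adipocyte list had 3 higher and 3 lower, the white adipocyte list 2 and 2, and the liver list 0 and 1. With the muscle list mean as a covariate, 27 of the 80 genes were called, 9 higher and 18 lower, and Col1a1 was not (limma adjusted p 0.054). The ranges of the muscle list mean did not overlap between the lines. This covariate therefore follows the line itself, and the lower count cannot show the part of muscle. The part of these cells in the values was not tested, and anything else that differed between the lines cannot be told apart from the line.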

How the data were processed

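RNA of brown adipose tissue in 32 samples was labelled with Cy3 and hybridised to 1-colour Agilent mouse arrays. The authors deposited scanner output with an intensity per spot (Agilent Feature Extraction 10.10.1.1), not normalized between arrays, with flags for spots found, well above background or outlying. The authors also deposited a log2 table, which per their methods had dim spots removed, was quantile normalized and held 1 median per replicated probe. Probe positions are on mm9. Arrays have no read depth, so their number limits the precision.

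The study's procedure was applied to the scanner output. Spots that were no controls were kept if 26 of 32 arrays, or 6 arrays of 1 group, showed them as found, positive and clearly brighter than background (39985 of 59305), and log2 median intensities were quantile normalized, giving 37306 probes. They differed from the deposited table by 0.00298 on average (log2). No spot was saturated. Each probe was fitted with limma 3.58.1 (lmFit, eBayes; R 4.3.3) with 4 group means over all arrays. Two-sided p values were adjusted by Benjamini-Hochberg across the kept probes, with calls under 0.05. A gene was represented by its brightest probe, and 38 of the 80 genes had more than 1. On simulated data, the fit recovered 83 of 100 changes of 0.5 and 100 of 100 changes of 1 (log2) in the total ChREBP KO comparison over 37306 probes. It also called 6 unchanged probes. The simulated arrays were independent, had normal spread that was equal in all groups and held few changed probes. The real arrays differ in this, so these rates are not the sensitivity of the real comparison.

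Groups were taken from the labels. The values of 1 laminin gene are counted but not reported here. Genes named in the text are, for each KO comparison, up to 10 highest and 10 lowest among called members with every KO array on 1 side of the WT mean, 5 highest and 5 lowest between WT groups, and 26 core genes; others named in the text were chosen after their values were seen. The members and lists were chosen with earlier results of these data known. Names are those of the array design, and 74 of the 80 matched a RefSeq accession of the same symbol in the GRCm38.p6 gene table. The alternatives were other background and scaling methods, the deposited table, other filters, wash batch, slide or replicate number as a block, array weights, other rules for probes and thresholds, muscle or liver gene levels as a covariate (liver chosen after seeing the data), and leaving out each array.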

Additional observations from a re-analysis of the deposited data

Results flagged for a closer look

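Among 44 named genes in 4 groups (176 combinations), 10 had 1 array standing apart from the other 7 of its group by Dixon's criterion, which chance alone gives in about 1 of 20 groups. Replicate 2 of ChREBPβ-line WT was highest for Col10a1 (log2 intensity 6.10, next 5.20). Replicate 8 of total-line WT was highest for Col20a1 (log2 intensity 7.41, next 7.11) and Lamb1 (log2 intensity 13.40, next 12.85). Replicate 5 of ChREBPβ-line WT was highest for Lamc1 (log2 intensity 12.62, next 12.35). Replicate 2 of total-line WT was highest for Mmp11 (log2 intensity 8.31, next 7.95) and Mmp9 (log2 intensity 6.85, next 6.10). Replicate 8 of ChREBPβ-line WT was highest for Mmp3 (log2 intensity 8.83, next 7.27). Replicate 2 of ChREBPβ KO was lowest for Adamts6 (log2 intensity 4.92, next 5.39). Replicate 2 of total-line WT was lowest for Lamb2 (log2 intensity 9.77, next 9.98). Replicate 6 of total ChREBP KO was lowest for Mmp9 (log2 intensity 5.57, next 5.82).

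The effect of the KO differed between the lines (ChREBPβ KO minus WT, less total ChREBP KO minus WT, limma adjusted p under 0.05) for 16 of the 44 named genes. Over all genes this difference was called for 25.2%. Many of the named genes were chosen for large KO effects, which are terms of this difference. Their share thus cannot be set against that of all genes. The log2 difference between the effects was above 0 for Adamts20 (1.79), Col5a3 (1.22), Mmp23 (1.16), Col5a2 (0.78), Mmp11 (0.78), Col2a1 (0.76), Col16a1 (0.73), Lama4 (0.62), Mmp14 (0.54) and Adamts5 (0.52). It was below 0 for Lamb3 (-1.05), Col10a1 (-1.04), Lamb1 (-0.77), Col4a5 (-0.68), Adamts6 (-0.55) and Mmp28 (-0.48). Of these, the calls of Col2a1 and Col10a1 were near the threshold (limma adjusted p 0.0478 and 0.0326) and were lost when any of 22 and 8 single arrays was left out.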

How the results depend on the processing

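The number of the 80 genes called in total ChREBP KO (45) stayed within 1.5 times, at 34 to 50, under all alternatives but 2. It was 27 of the 44 genes left by the requirement that a probe be found, positive and above background on every array, and 22 (7 higher, 15 lower) with a change of at least 1.5-fold required. With 1 array left out it was 41 to 46. In ChREBPβ KO the 7 calls became 1 with slide as a fixed block, 3 in a fit to the groups of that line alone, 4 with the mean of the probes of a gene and 0 with a change of at least 1.5-fold required (by limma, 21 genes had an unadjusted p under 0.05), and 3 to 9 with 1 array left out. The split of 5 higher and 2 lower was 6 and 0 with only probes found, positive and above background on every array, 0 and 1 with the slide block, 1 and 2 in the fit to that line, 2 and 2 with the mean of probes, 3 and 2 with Agilent's processed signal or wash as a block, and 5 and 1 with the replicate block. The 22 calls for the difference between the KO effects became 13 with the 1.5-fold requirement and 20 to 28 with 1 array left out. The 50 calls between the WT groups became 27 with only probes found, positive and above background on every array, 27 with the muscle list mean as a covariate and 24 (3 higher, 21 lower) with the 1.5-fold requirement, and 48 to 51 with 1 array left out. The cause of these shifts was not tested, except that stricter filters and thresholds leave fewer genes.

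Same-numbered KO and WT arrays of a line had deviations from their group means correlated between -0.304 and 0.0801 in the total line (8 pairs) and between -0.196 and 0.532 in the ChREBPβ line, where 6 of 8 pairs were over 0.1. Since not every pair was, and 1 of 16 KO arrays correlated best with the WT array of its own number, the numbers were not taken as pairs. With the replicate block 44, 6 and 22 genes were called in total ChREBP KO, ChREBPβ KO and for the difference, and the Lamc3 call in ChREBPβ KO was lost (limma adjusted p 0.0519). The WT groups could not be fitted with it, since the block was nested in the line. With liver gene levels as a covariate, added after seeing the data, the counts were 45, 7, 26 and 50. Of named genes, only the mean of the probes of a gene gave a call opposite in sign to the reported value. This held for Lama2 (-0.31 in total ChREBP KO and 0.40 for the difference) and Timp3 (-0.27 in total ChREBP KO), which were not called there by the brightest probe. Values that were not called also changed sign among the alternatives that kept all arrays, such as Col6a3 in ChREBPβ KO (-0.12 to 0.11). Dim probes near background, such as Col24a1, Mmp13 and Adamts20 in total ChREBP KO, limit what can be said of the size of their changes.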
